A study of Mus musculus with 2 samples.

Results

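Co-stimulatory receptors, their ligands and surface markers of activation are encoded by the 7 genes followed here from naive to activated CD8+ T cells. These are Cd28, Icos, Cd226, Cd80, Cd86, Cd44 and Cd69, of 18193 genes that at least 1 probe set named alone. They were chosen by symbol, and every probe set naming one of them and no other gene was taken, 17 of 34945 such probe sets. Both groups came from pmel-1 mice, a strain whose transgenic T cell receptor recognises a melanocyte antigen, so that the receptor specificity is shared by both groups. Total RNA was taken from purified naive CD8+ T cells, and from proliferating CD8+ T cells 72 h after activation. The sources used here do not give the age and sex of the mice, the activating agent or the way the cells were purified. RNA of 4 independent experiments was pooled for each group and hybridised to 1 array covering the mouse genome. There are therefore 2 arrays and no replicates, differences carry no error and no test, and the small number of arrays sets the precision. In pools of this kind, fewer cells of a type and less RNA per cell cannot be told apart.

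CD28 is the receptor through which a T cell receives the co-stimulatory signal that accompanies antigen recognition. It binds CD80 and CD86 on antigen-presenting cells, and shares both ligands with the inhibitory receptor CTLA-4. ICOS is a related receptor that appears on the cell surface after activation and binds ICOS ligand. CD226 is a co-stimulatory receptor of the immunoglobulin superfamily outside the CD28 family, and it competes with the receptors TIGIT and CD96 for ligands of the nectin family. CD44 is a receptor for hyaluronan that is used to tell naive from antigen-experienced T cells, and CD69 is a lectin-like surface protein that appears early after stimulation and holds lymphocytes in lymphoid tissue by removing the sphingosine-1-phosphate receptor S1PR1 from the cell surface.

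Activated cells had higher intensities of the receptor genes Cd28 and Icos, of the ligand gene Cd80 and of Cd44, a lower intensity of Cd226, and intensities of Cd86 and Cd69 that did not pass the size rule. That rule asks for a ratio of at least 1.4 between the arrays, with values under 100 raised to 100, and a difference of more than 100 between the deposited intensities. A fold is a lower bound when 1 of the values lies under 100, and a gene with both values under 100 is not compared. The probe set with the highest mean intensity of both arrays stood for its gene. All 7 genes were measured, 4 of them higher and 1 lower, beside 23.7% of 9842 measured genes higher and 20.6% lower. The counts of partner and marker genes given below stand beside the same shares. The median log2 ratio of the 7 genes was 0.82, and that of all measured genes was 0.01. Counted by probe set, 10 were higher, 1 was lower, 2 did not pass and 4 lay under 100 on both arrays, beside 21.9% of 19250 measured probe sets higher and 19.3% lower. Across genes with several probe sets above 100 on both arrays, log2 ratios of the same gene differed with a standard deviation of 0.39, which is the only spread these arrays offer and is not one between experiments.

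**Figure D1:**
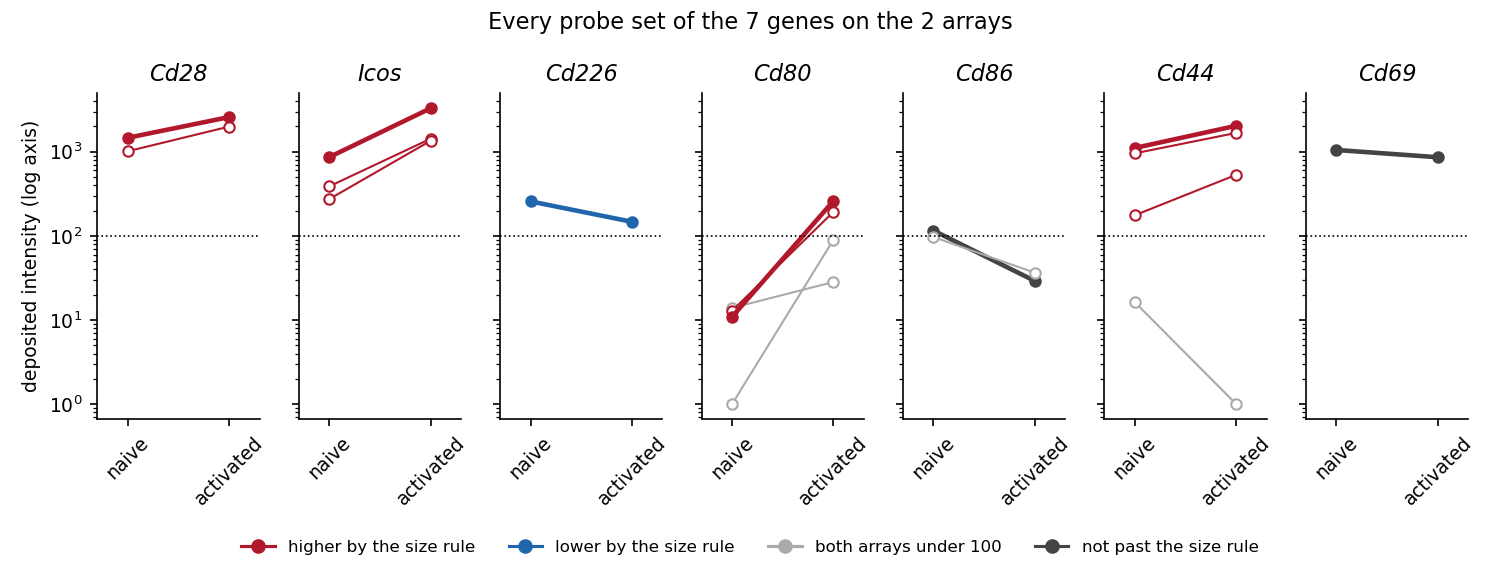
Deposited intensity (log axis) of every probe set of the 7 genes on the naive and the activated array. Each line joins the 2 values of 1 probe set, the thick line with filled points is the probe set that represents the gene, the dotted line marks 100 and colours give the result of the size rule. All 3 probe sets of Icos, both of Cd28 and 3 of the 4 of Cd44 lie higher on the activated array, Cd80 starts under 100, and Cd86 ends under 100.

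The co-stimulatory receptor genes Cd28 and Icos were detected in naive cells and were higher in activated cells, Icos by more than Cd28. Cd28 (Entrez gene 12487) had an intensity of 1464 in naive and 2580.3 in activated cells by its brighter probe set, and at 1012 and 1990.3 by the other. The naive pool was thus already well above 100, and the ratios were 1.76-fold and 1.97-fold. Icos (Entrez gene 54167) was at 861 and 3282 by its brightest probe set (3.81-fold higher). Its other probe sets were at 387 and 1427 (3.69-fold) and at 273 and 1349 (4.94-fold). All 3 ratios of Icos thus exceeded both ratios of Cd28, with log2 ratios of 1.88 to 2.30 against 0.82 to 0.98. Only 3.54% of measured genes had a higher ratio than Icos, whereas 84.0% had a lower ratio than Cd28. When a fold of at least 2 was required, Cd28 no longer passed and Icos did. CD4 T cells also carry both receptors. Of 4 markers of CD4 T cells, Cd4 was at 45.1 and 50.5, the regulatory T cell gene Foxp3 at 76.5 and 65.9 and Cd40lg at 25.3 and 33.0, all under 100 on both arrays, and Zbtb7b was at 104 and 85.2.

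In the mouse genome annotation Cd28, Ctla4 and Icos are consecutive protein-coding genes of chromosome 1 (RefSeq, GRCm38.p6, used here for gene order only). Ctla4, the gene between the other two, encodes the inhibitory receptor for the same ligands as CD28. It was at 226 and 3398, a larger difference than at either neighbour (log2 ratio 3.91 by its 1 probe set). The 3 neighbouring genes thus were all higher in activated cells, in the order Cd28, Icos and Ctla4 by ratio. Over the wider list of B7 and CD28 family genes, apart from Cd28, Icos, Cd80 and Cd86, 4 of 7 measured genes were higher, 2 were lower and the median log2 ratio was 0.52. Besides Ctla4 the higher genes were the inhibitory receptor gene Pdcd1, Pdcd1lg2, which encodes its ligand PD-L2 (50.7 and 515, at least 5.15-fold), and Btla (1478 and 2124.7, 1.44-fold). The lower genes were Vsir, which encodes the inhibitory protein VISTA (1431 and 326, 4.39-fold), and Cd274, which encodes PD-L1 (270 and 158, 1.71-fold). Cd276 was at 121 and 84.5 and did not pass. Icosl, the ligand gene of ICOS, lay under 100 on both arrays (26.4 and 81.5), as did Tnfrsf14, the receptor that binds BTLA (1.68 and 1.26), Vtcn1 (11.5 and 15.1) and Vsig4 (24.5 and 29.2), while Hhla2 and Tmigd2 were not analysed here.

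Cd226 was the only one of the 7 genes that was lower in activated cells by the size rule, and it rested on 1 probe set. Cd226 (Entrez gene 225825) had an intensity of 257 in naive and 147 in activated cells (1.75-fold lower). The difference of 109.9 was close to the minimum of 100. The call was lost with a difference minimum of 200, with a fold minimum of 2 and with a floor of 200 (log2 ratio -0.36). Cd96, the receptor gene whose product competes for the same ligand, was at 2031 and 487 (4.17-fold lower), so that both genes stood on the same side. Crtam, a further receptor for nectin-like proteins, was at 707 and 514, and Pvr, which encodes the shared ligand CD155, was at 323 and 333, neither past the size rule. Of the other ligand genes, Nectin1 (51.8 and 51.6), Nectin2 (23.4 and 22.1), Nectin3 (18.9 and 20.9) and Cadm1 (95.1 and 73.9) lay under 100 on both arrays. Apart from Cd226, 0 of the 3 measured genes of the CD226 ligand and rival list were higher, 1 was lower and the median log2 ratio was -0.46. Tigit and Pvrig were not analysed here.

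**Figure D2:**
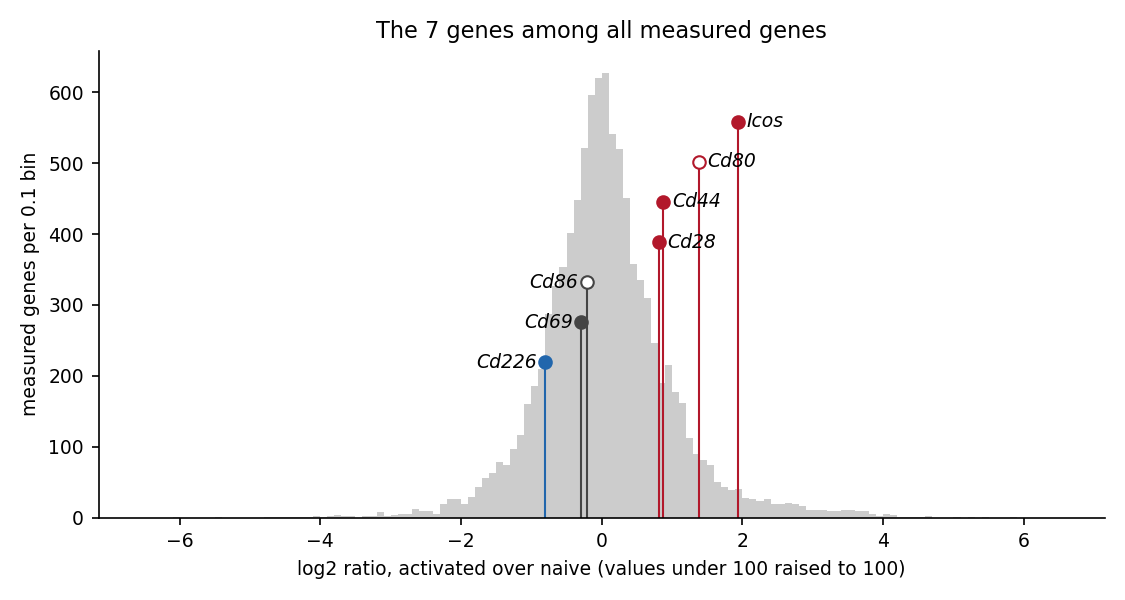
Histogram of the log2 ratio of activated over naive cells for all 9842 measured genes (vertical axis, genes per bin), with the 7 genes marked by stems whose heights only separate the labels. Open points are lower bounds, in which 1 array lay under 100. Icos has the highest log2 ratio of the 7, at 1.93, and Cd226 the lowest, at -0.81. Cd69 lies at -0.29, and the -0.21 of Cd86 is set by the floor of 100.

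The ligand genes Cd80 and Cd86 differed in opposite directions in deposited intensity, both at low levels, and only Cd80 passed the size rule. Cd80 (Entrez gene 12519) had an intensity of 10.9 in naive and 260.3 in activated cells by its brightest probe set (at least 2.60-fold higher), and at 12.9 and 193 by another (at least 1.93-fold). Its other probe sets were at 1 and 89.9 and at 13.9 and 28.3, under 100 on both arrays. All 4 probe sets thus were under 100 in naive cells and higher in activated cells, 2 of them far enough to be called. Because the naive values lay near the lowest deposited value of 1, the fold is a bound set by the floor of 100. With a floor of 200 the log2 ratio of Cd80 was 0.38 and it no longer passed, and both called probe sets carry the array's suffix for shared transcripts of a gene, without which Cd80 lay under 100 on both arrays.

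Cd86 (Entrez gene 12524) had an intensity of 116 in naive and 29.1 in activated cells by its brighter probe set, and at 96.9 and 36.5 by the other. Both probe sets were lower in activated cells, but the differences of 86.7 and 60.4 lay under the minimum, and the ratio of the first was at least 1.16-fold. B cells, dendritic cells and macrophages express Cd86 and Cd80, so that markers of such cells are given beside them. Of 7 class II antigen presentation genes, 6 were measured and all 6 were lower, with summed intensities of 8519 in naive and 1302 in activated cells. The largest ratios were those of H2-Aa (2007 and 83.0), H2-Eb1 (1392 and 72.9), Cd74 (3003 and 405) and H2-Oa (653 and 140). Of the 4 measured probe sets of H2-Aa, 3 were lower and 1 did not pass (log2 ratio -0.03). Of 11 B cell genes, 5 of 7 measured were lower and 0 higher, with summed intensities of 8209 and 4102. Cd37, which T cells also express (1866 and 563), Cd79b (293 and 40.0), Fcmr (171 and 57.8) and Ighm (4990.5 and 2967.6) had the largest ratios. All 7 measured probe sets of Ighm were lower, with log2 ratios from -4.71 to -0.75, the last being that of the brightest. The brightest Ighm probe set made up most of both sums. Pax5 lay under 100 on both arrays (44.7 and 56.1).

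Of 13 macrophage and monocyte genes, 3 of 4 measured were lower and 0 higher, with summed intensities of 1869 and 1184. The lower ones were Ccr2, which T cells can also express (455 and 213), Csf1r (642 and 345) and Lyz2 (173 and 21.8). Of the 3 measured probe sets of Ccr2, 1 did not pass (log2 ratio 0.03), nor did 1 of the 2 of Csf1r (-0.20). The remaining measured gene, C1qb, was at 214 and 238 and did not pass. Adgre1 (42.1 and 51.7) and Cd14 (48.3 and 48.8), which define macrophages and monocytes, lay under 100 on both arrays. Of 10 dendritic cell genes, 2 of 5 measured were lower and 1 was higher, with summed intensities of 4482 and 3320. Ccl22 was at 284 and 34.6, and Ccr7, which T cells also express, at 3536 and 1815, while Batf3, also a gene of activated T cells, was at 92.4 and 987. Ccr7 made up most of both sums, and Batf3 most of the remainder on the activated array. Itgax, which encodes CD11c, was at 115 and 27.6 and Cd83 at 229 and 257, neither past the size rule. Markers of CD8 T cells were high on both arrays (summed intensities of 41299 and 29736), with 4 of 8 lower, namely Cd8b1, Thy1, Cd2 and Cd247, and 0 higher. The measured class II genes thus were all lower, the B cell and macrophage lists were lower in most measured genes, and the dendritic cell genes stood on both sides. The part of other cells in the values of Cd80, Cd86 and Cd44 was not tested.

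**Figure D3:**
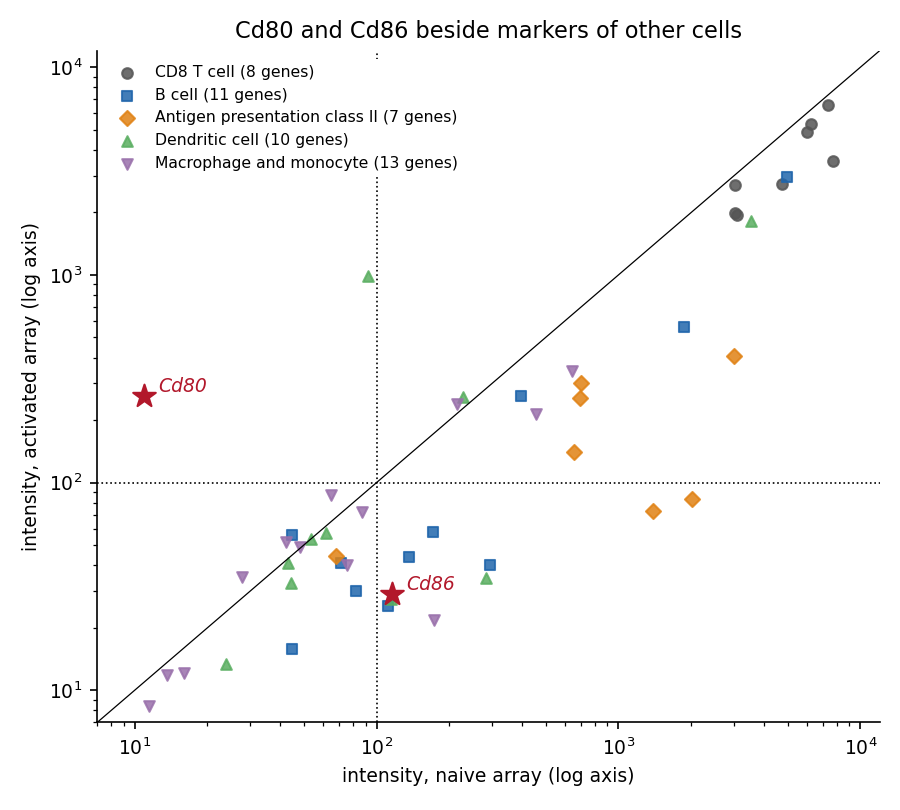
Intensity on the naive array (horizontal, log axis) against intensity on the activated array (vertical, log axis) for Cd80 and Cd86 (stars) and for genes that mark CD8 T cells, B cells, class II antigen presentation, dendritic cells and macrophages or monocytes, 1 point per gene; the solid line marks equal intensity and the dotted lines mark 100. All measured class II genes lie below the line of equal intensity, as does Cd86, whereas Cd80 lies above it at 10.9 and 260.3.

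Cd44, which marks antigen-experienced T cells, was above 100 in naive cells and higher in activated cells by every probe set that could be compared. Cd44 (Entrez gene 12505) was at 1108 and 2036 by its brightest probe set (1.84-fold higher), at 958 and 1675 by the next (1.75-fold), and at 176 and 533 by a dimmer one (3.03-fold). The fourth lay under 100 on both arrays (16.3 and 1). The log2 ratios of the 3 compared probe sets ran from 0.81 to 1.60 and so were all above 0. With a fold minimum of 2, Cd44 no longer passed by its brightest probe set. Of all measured genes, 14.8% had a higher ratio.

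Genes that act with CD44 stood on both sides, with 2 of 15 measured genes higher and 4 lower apart from Cd44, at a median log2 ratio of -0.17. Hmmr, which encodes a second hyaluronan receptor that also works at the mitotic spindle, was at 74.9 and 1112 (at least 11.1-fold higher), and Srgn, which encodes the granule proteoglycan serglycin, was at 5172 and 7374 (1.43-fold higher). Of the proteins that tie CD44 to the actin cytoskeleton, moesin (Msn) was lower, at 4768 and 2789 (1.71-fold), whereas ezrin (Ezr, 3637 and 3125) and radixin (Rdx, 1873 and 2084) did not pass. The integrin gene Itga4 (1787 and 506) was 3.53-fold lower and the selectin ligand gene Selplg (3355 and 1921) 1.75-fold lower, and Cd74, given above, was the fourth lower gene. The sheddase genes Adam10 (1930 and 2168) and Adam17 (599 and 612) and the scaffold gene Ank3 (150.3 and 158) did not pass by their brightest probe sets, although 2 of the 3 measured probe sets of Adam10 were higher (log2 ratio up to 0.95), as was 1 of the 3 of Rdx (0.59). The hyaluronan synthase genes Has1, Has2 (48.5 and 69.3) and Has3 (8.49 and 8.79) lay under 100 on both arrays, and Hyal1 and Spp1 were not analysed here.

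Cd44 and Cd80 were both higher in activated cells, and the 250 bases before a RefSeq transcript start of each are shown for comparison, 5′ to 3′ on the strand of the gene. They are the 2 of the 7 genes matched in the RefSeq promoter table of assembly GRCm38.p6. The Cd44 window is chr2:102901666-102901915 on the minus strand and ends at a start 4 bases inside the annotated gene. The Cd80 window is chr16:38458683-38458932 on the plus strand and ends at a start that lies 1503 bases inside the annotated gene. Capitals mark matches to TGANTCA, a loose form of the AP-1 motif, and to GGAAA, the core bound by NFAT. N stands for any base, so the first pattern is wider than the usual AP-1 motif. AP-1 and NFAT act downstream of the T cell receptor and CD28, and each pattern was searched on both strands.
Cd44: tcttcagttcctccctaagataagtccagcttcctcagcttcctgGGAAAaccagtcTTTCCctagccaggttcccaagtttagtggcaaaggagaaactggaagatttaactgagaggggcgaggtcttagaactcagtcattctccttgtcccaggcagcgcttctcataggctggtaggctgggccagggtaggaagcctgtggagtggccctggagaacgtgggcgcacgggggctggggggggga
Cd80: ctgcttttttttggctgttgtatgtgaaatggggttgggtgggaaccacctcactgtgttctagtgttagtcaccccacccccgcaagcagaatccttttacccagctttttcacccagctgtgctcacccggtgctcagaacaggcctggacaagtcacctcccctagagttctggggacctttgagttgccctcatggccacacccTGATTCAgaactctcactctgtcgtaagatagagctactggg
The Cd80 window holds 1 match to TGANTCA, with T in place of N, and the Cd44 window holds 0. Of 32851 RefSeq windows of the same length, 6.75% hold a match to this wide pattern. GGAAA occurs 2 times in the Cd44 window and 0 times in that of Cd80, and 55.6% of windows hold it. None of these matches overlap. A match describes letters in these windows, and binding was not measured.

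Cd69 was high in naive cells and not higher in cells 72 h after activation. Cd69 (Entrez gene 12515) was at 1049.8 and 860.1 by its only probe set, 1.22-fold lower and not past the size rule under any alternative tried. Of all measured genes, 32.2% had a lower ratio. S1pr1, whose product CD69 removes from the surface, was at 2253 and 359 (6.28-fold lower), and Klf2, a transcription factor that drives S1pr1, was at 3778 and 1409 (2.68-fold lower). Both thus stood lower while Cd69 did not pass. Of the other proteins reported to bind CD69, galectin-1 (Lgals1) was at 4046 and 14410.4 (3.56-fold higher) and the amino acid transporter chain Slc7a5 at 154 and 646 (4.19-fold higher), with its partner Slc3a2 at 872 and 1263 (1.45-fold higher). The myosin light chain genes differed from each other, with Myl12a at 5876 and 5896, Myl12b at 5133 and 2365 (2.17-fold lower) and Myl9 under 100 on both arrays (39.3 and 1). S100a8 (98.0 and 92.1) and S100a9 (19.6 and 1) lay under 100 on both arrays. S1pr4 was at 1312 and 940.0 and did not pass, and S1pr5 (10.2 and 4.19) and the sphingosine-1-phosphate exporter gene Spns2 (49.9 and 30.5) lay under 100. Gnai2 (2604 and 1748, 1.49-fold), which encodes the G protein subunit that couples to S1PR1, and Sgpl1 (314.5 and 165, 1.90-fold), the sphingosine-1-phosphate lyase, were lower, as was Ccr7. The other probe sets of Gnai2 and Sgpl1 did not pass (log2 ratios -0.44 and -0.65). Apart from Cd69, 3 of 11 measured genes of this list were higher and 6 were lower. Their median log2 ratio was -0.58.

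Genes of proteins that relay or restrain the CD28 and ICOS signal, called the relay list here, were mostly lower or not past the size rule. Genes known to respond to CD28 co-stimulation were mostly higher. Both lists were chosen with earlier results of these data known. The activating agent is not given, and whether CD28 signalling raised these genes was not tested. Of 20 measured genes of the relay list, 1 was higher and 9 were lower by their brightest probe sets. The median log2 ratio of this list was -0.32. Pik3r1, the regulatory subunit of the kinase that binds the tails of CD28 and ICOS, was at 965 and 423 (2.28-fold lower), and the catalytic subunit gene Pik3cd was at 2295 and 1368 (1.68-fold lower), with log2 ratios from -0.90 to 0.28 among its measured probe sets. The adaptor gene Grap2 was at 312 and 105 (2.98-fold lower) by its brighter probe set and gave a log2 ratio of -0.01 by the other. Protein kinase C theta (Prkcq, 2698 and 1413) was 1.91-fold lower, filamin A (Flna, 1572 and 780) 2.02-fold and the exchange factor Vav1 (733 and 478) 1.53-fold. Carmil2, whose product links CD28 to the cytoskeleton, was at 322 and 209 (1.54-fold lower), and Fyn (2110.1 and 1156) and Tbk1 (1789 and 1205) were the remaining lower genes. The second measured probe sets of Carmil2 and Tbk1 did not pass (log2 ratios -0.56 and -0.44). Malt1, the protease of the NF-kappaB pathway, was the higher one, at 839 and 1269 (1.51-fold) by 1 of its 3 probe sets, the others not passing, and its partner Bcl10 was at 3053 and 2413 and did not pass. Akt2 (605 and 590.4) and Ppp2ca (2709 and 2775) lay nearest to no difference by their brightest probe sets. Other probe sets gave log2 ratios up to 0.51 for Akt2 and 0.50 for Ppp2ca, none past the size rule. Cblb, Akt1 and Grb2 did not pass by their brightest probe sets either. However, 1 other probe set was higher for Cblb (log2 ratio 1.10) and for Akt1 (0.91), and 1 was lower for Grb2 (-0.63). Those genes were named after their values were seen.

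Of 12 measured genes of the CD28 response list, 9 were higher and 1 was lower, and the median log2 ratio was 1.48. Ifng, Il2ra, Irf4 and Tnfrsf9 had the largest ratios (log2 ratios of at least 5.04, at least 3.90, at least 3.88 and 3.47). Bcl2l1, the survival gene that CD28 is known to raise, was at 214 and 643 (log2 ratio 1.59), the glucose transporter gene Slc2a1 at 728 and 1897 (2.61-fold higher) and the NF-kappaB subunit gene Rel at 75.1 and 246 (at least 2.46-fold). Il2, which encodes the cytokine most closely tied to CD28, lay under 100 on both arrays (9.34 and 70.8), as did Cd40lg and Il4 (23.3 and 39.6). The NF-kappaB inhibitor gene Nfkbia was the lower one, at 4450.2 and 2205 (2.02-fold), and Mcl1 (3599 and 3239) and Cpt1a (507 and 644) did not pass by their brightest probe sets. Of the 6 measured probe sets of Mcl1, 4 were lower, with a log2 ratio down to -1.24. Nfkb1 was not analysed here.

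Among 23 other measured surface markers of activation and memory, 11 were higher and 7 were lower, around a median log2 ratio of 0.42. Cd28, Cd44 and Icos thus had smaller ratios than the markers with the largest ones, which were Il2ra and Tnfrsf9, given above, and Tnfrsf4, which encodes OX40 (252 and 2669, 10.6-fold higher). Itgae had the largest ratio in the other direction, at 2663 and 65.7 (at least 26.6-fold lower). Cd5 (1138 and 1184) and Spn (1407 and 1301) did not pass. Tfrc, the transferrin receptor gene, was at 725 and 5579 (7.70-fold higher), and Cd27, a co-stimulatory receptor gene of the TNF receptor family, was at 2223 and 1306 (1.70-fold lower). These 2 were named after their values were seen.

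**Figure D4:**
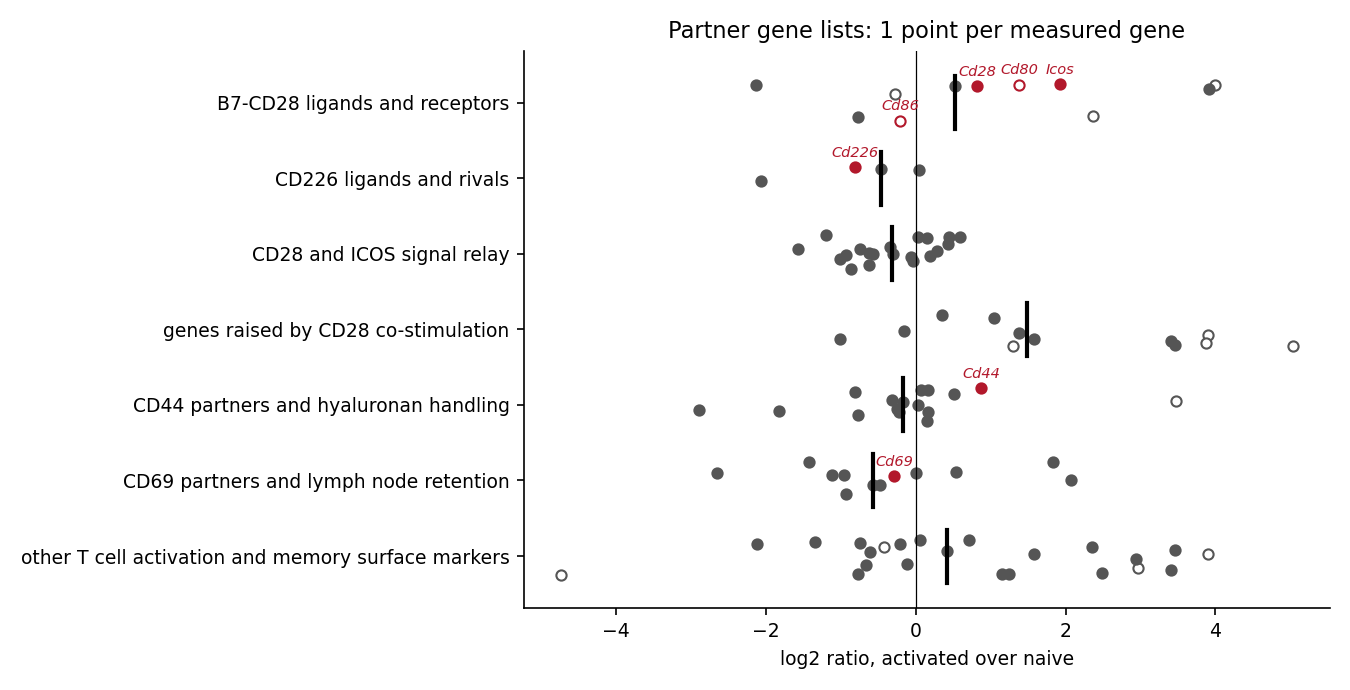
Log2 ratio of activated over naive cells (horizontal axis) for the measured genes of 7 partner lists (rows), with 1 point per gene, the members named in red, open points for lower bounds and a vertical bar at the median of the other genes. The medians lie between -0.58 for CD69 partners and 1.48 for genes that respond to CD28 co-stimulation, beside 0.01 for all measured genes.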

How the data were processed

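RNA of each group was hybridised to 1 Affymetrix mouse genome array. The values that the authors deposited are linear intensities, 1 for each probe set, computed with the perfect-match minus mismatch model of dChip and scaled with its invariant set method, per the series' design text. The present and absent calls of GCOS, which the submitters' processing notes name, were not used here. The design text asks for a fold above 1.4 by its lower confidence bound, a difference above 100 and a present call, so that the size rule applied here keeps only the fold and the difference. Of 45037 probe sets other than 64 controls, 34945 had 1 gene symbol, 932 several and 9160 none in the platform annotation. Entrez identifiers of 34741 matched RefSeq (GRCm38.p6), which changed 0 symbols.

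Ratios were formed after raising values under 100 to 100. At 57.3% of probe sets both values lay under 100. Medians were 56.2 and 52.3, and the median log2 ratio above 100 on both arrays was 0.01. From each partner list the text names up to 4 genes past the size rule with the largest ratios, up to 2 nearest to 0 and every ligand or rival receptor, and from each marker list up to 4 past the rule. Genes outside this rule, such as Pik3cd, Vav1, Carmil2, Fyn, Tbk1, Malt1, Bcl10, Bcl2l1, Slc2a1, Rel, Il2, Nfkbia, Ezr, Rdx, Msn, Srgn, Adam10, the hyaluronan synthase genes and markers under 100, were chosen after their values were seen. The members and lists were chosen with earlier results of these data known. Alternatives were median, quantile and loess scaling, floors of 50 and 200, a fold minimum of 2, difference minimums of 50 and 200 and 3 other ways to represent a gene. The procedure was tested on simulated data. All planted differences lay in bright probe sets and were larger than those of Cd28, Cd44 and Cd226 by their brightest probe sets. The simulated noise was smaller than the spread between probe sets of the same gene given above. The simulation therefore covers neither calls as small as those of Cd28, Cd44 and Cd226 nor noise as large as that spread. Python 3.11.15, pandas 2.3.3 and statsmodels 0.14.6 were used.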

Additional observations from a re-analysis of the deposited data

How the results depend on the processing

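Over the union of the partner lists without the 7 genes, 27 of 88 measured genes were higher and 30 lower. Counts of higher and lower genes among the 7, their probe sets, the partner lists and all measured genes stayed within 1.5 times of those given under median, quantile and loess scaling, a floor of 50 and a difference minimum of 50. With a floor of 200, 0 of the 7 genes and 0 of their probe sets were lower. With a difference minimum of 200 the lower counts were again 0 and 0. With a fold minimum of 2, 2 of the 7 genes (Icos and Cd80) and 5 of their probe sets were higher and 0 and 0 lower, 22 partner genes were higher and 14 lower, and 1193 of all measured genes were higher and 904 lower. With the median over probe sets, or the probe set with the highest single value, 4 of the 7 genes were again higher and 1 lower. With plainly named probe sets alone 3 were higher and 1 lower, because Cd80 could not be compared. With a floor of 200, 3 were higher, and the median log2 ratio of the B7 and CD28 family list without its 4 members was 0.94. The log2 ratio of Icos ran from 1.81 to 1.93 over the 11 alternatives, that of Cd28 from 0.74 to 0.90, that of Cd44 from 0.82 to 0.88 and that of Cd69 from -0.37 to -0.29. Those of Cd80 (0.38 to 2.38) and Cd86 (-1.21 to -0.17) moved with the floor and kept their sign in the 10 alternatives that gave each a value. No paired analysis was possible because each group had 1 array. Signals near or under 100 limit Cd80, Cd86 and Cd226.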

Other observations

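Markers of other blood and tissue cells that were not described above stood as follows, by the same size rule. Of 8 granulocyte genes 1 was measured and none was higher or lower (summed intensities of 381 and 415), with Elane at 74.3 and 55.7 and Camp at 42.7 and 39.4. Of 4 red cell genes, 1 of 3 measured was lower, namely Hbb-b2, whose near-identical neighbours make the gene uncertain. The summed intensities were 7136 and 153, and the brightest Hbb-b2 probe set (6852 and 1) made up most of the naive sum. The other Hbb-b2 probe set did not pass (log2 ratio -0.18), nor did Alas2 (127 and 1) and Slc4a1 (107 and 105). Of 6 platelet genes, 1 of 3 measured was lower, the integrin chain gene Itgb3 (242 and 129.8), with summed intensities of 779.5 and 632. Of 8 stromal and endothelial genes, Pecam1, which T cells also express, was the 1 measured and was lower (511 and 201), while Col1a1 (7.06 and 11.6) and Cdh5 (32.5 and 33.4) lay under 100.

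Of 4 natural killer cell genes, 2 of 3 measured were lower and 1 was higher. The lower ones were Eomes, which CD8 T cells also express (725.0 and 215), and Klra8 (242 and 29.9). The higher one was Gzmc, a granzyme gene that activated T cells also express (2.49 and 829). Ncr1, which defines natural killer cells, lay under 100 on both arrays (54.7 and 27.8).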
